A study of Mus musculus with 12 samples.

Results

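The 10 genes described here encode proteins that coat or act at the lipid droplet, chosen by name: the perilipins Plin1, Plin2, Plin3, Plin4 and Plin5, the droplet fusion factor Cidec, the lipase inhibitors G0s2 and Hilpda, and the endoplasmic reticulum proteins Bscl2 and Fitm2. They were chosen with earlier results of these data known. Each has 1 row among the 39422 genes of the table, after the rows Plin2 and Plin2_1 had been summed. The row Plin2 was empty in every library, so all Plin2 counts stood under Plin2_1. The cells were 3T3-L1, fibroblast-like mouse cells that differentiate into adipocytes when given DMI, the adipogenic cocktail of insulin, dexamethasone and 3-isobutyl-1-methylxanthine. Messenger RNA was sequenced from cells carrying a nontargeting siRNA (siCtrl, NC in the labels) or siRNA against the arginine methyltransferase PRMT1 (siPRMT1), after 24 h (day 1) and 72 h (day 3) of DMI, with 3 libraries in each of the 4 conditions. All 12 libraries thus came from transfected and induced cells of 1 line, and no uninduced cells were analysed here. Which PRMT1 siRNA was used is not given in the sources used here, and the labels do not say whether libraries of a condition came from separate cultures, so p-values measure the spread between these libraries, which may be technical.

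A lipid droplet is a core of triglyceride and sterol ester under a phospholipid monolayer, formed from the membrane of the endoplasmic reticulum. Seipin, the product of Bscl2, sits where droplet and reticulum touch, and Fitm2 acts in the reticulum when triglyceride buds into droplets. Perilipins cover the surface and govern the access of lipases, Cidec gathers at droplet contacts and lets small droplets fuse into large ones, and G0s2 and Hilpda inhibit adipose triglyceride lipase (Pnpla2), which starts lipolysis. In adipocytes PLIN1 is the main coat of large droplets, whereas PLIN2 and PLIN3 also coat the droplets of many other cells and PLIN5 is best known from oxidative tissues. Loss of seipin causes generalized lipodystrophy in people. Droplets and proteins were not measured in these files, only transcripts.

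The libraries held between 15116462 counts on genes (siCtrl replicate 2 at day 3) and 42357137 (siCtrl replicate 1 at day 1). The most that a count of 0 allows, 3 counts, equalled 0.0708 to 0.1985 CPM (counts scaled to the library total), counting error only. Replicates of siCtrl at day 1 stood furthest apart: the chi-square per gene was 50.6 and 30.8 between replicate 3 and the other siCtrl libraries, 5.30 between those other libraries, and at most 15.8 in every other pair of replicates. Knockdown differences at day 1 are therefore given with and without siCtrl replicate 3. Prmt1 itself was at 82.9, 83.4 and 91.3 FPKM (counts scaled to the gene's length and the library total) in siCtrl and 43.8, 38.6 and 41.4 in siPRMT1 at day 1, and at 111, 120.4 and 140.2 against 62.0, 71.7 and 68.5 at day 3. Its log2 fold change was -1.11 at day 1 (edgeR adjusted p = 9.8e-04), or -1.07 without siCtrl replicate 3, and -0.88 at day 3 (edgeR adjusted p = 1.2e-05). The summed FPKM of 10 adipocyte markers was 184 to 195 in siCtrl and 149 to 160 in siPRMT1 at day 1, with Lep at 0 in both, and 2522 to 2729 and 1940 to 2206 at day 3. Of 9 markers of preadipocytes and fibroblasts the sum was 1356 to 1407 and 1281 to 1310 at day 1, and 492 to 526 and 601 to 684 at day 3. Macrophage markers summed to at most 3.02 FPKM with Ptprc at 0 in every library, endothelial markers to at most 0.88, and Epcam and Cdh1 of the epithelial list did not pass 0.02. In that list, Krt8 and Krt18 carried sums of 11.0 to 11.4 in siCtrl and 6.36 to 6.64 in siPRMT1 at day 3. Myod1 and Myog of the muscle list were at or near 0 (at most 0.03), while its sum, carried by Acta2, was 21.9 to 29.5 at day 1, and 104 to 123 in siCtrl and 146 to 158 in siPRMT1 at day 3.

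The bases just before the start sites are shown for 3 genes that were lower in siPRMT1 at day 3, G0s2, Cidec and Hilpda, and for Plin3, which was called in no comparison. These 150 bases contain no exon of any gene in the table. That also held for Plin2, the second start of Plin5 and the third start of Bscl2, which are not shown. The letters come from RefSeq on GRCm38.p6, are printed 5′ to 3′ on the gene's strand, and end at the base before the transcript start. Capitals mark matches on either strand to the searched motifs, which were AGGTCA (a nuclear receptor half-site), TTGCNNCAA (C/EBP), ACGTG (the core of a hypoxia response element), TATAAA (the core of a TATA box), CCAAT (the element of that name) and GGGCGG (a GC box).
G0s2, chr1:193273189-193273338, minus strand: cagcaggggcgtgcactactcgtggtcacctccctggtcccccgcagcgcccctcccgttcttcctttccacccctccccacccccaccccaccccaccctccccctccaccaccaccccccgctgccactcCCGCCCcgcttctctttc
Cidec, chr6:113435761-113435910, minus strand: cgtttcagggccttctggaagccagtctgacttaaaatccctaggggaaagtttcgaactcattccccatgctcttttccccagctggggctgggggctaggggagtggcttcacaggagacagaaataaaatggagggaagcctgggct
Hilpda, chr6:29272338-29272487, plus strand: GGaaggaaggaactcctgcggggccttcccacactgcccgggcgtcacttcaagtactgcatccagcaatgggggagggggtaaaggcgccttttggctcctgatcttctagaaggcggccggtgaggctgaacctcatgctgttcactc
Plin3, chr17:56290512-56290661, minus strand: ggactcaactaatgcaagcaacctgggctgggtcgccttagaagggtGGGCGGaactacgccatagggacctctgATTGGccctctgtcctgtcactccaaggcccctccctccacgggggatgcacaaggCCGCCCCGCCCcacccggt
G0s2 held 1 GC box at bases -18 to -13, Cidec held none of the motifs, and the capitals that open the Hilpda sequence are the end of a GC box at -154 to -149. Plin3 held a GC box at -103 to -98, a CCAAT box on the other strand at -75 to -71, and a pair of GC boxes at -19 to -14 and -14 to -9 that share 1 base. Over the 250 bases before the 15 start sites that RefSeq gives for the 10 genes, AGGTCA was found in 3 windows, those of Plin2, Plin5 and the second start of Bscl2, ACGTG in 1, the second start of Hilpda, CCAAT in 5 and GGGCGG in 6, and TTGCNNCAA and TATAAA in 0. Of all 32851 such windows, 14.0% held AGGTCA, 16.6% ACGTG, 33.8% CCAAT, 32.7% GGGCGG, 1.74% TTGCNNCAA and 12.4% TATAAA. A match is a description of the letters only.

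From day 1 to day 3 of DMI most of the droplet genes rose, and 5 of them were lower with PRMT1 knockdown at day 3. In siCtrl cells G0s2, Plin1 and Cidec went from means of at most 4.45 FPKM to the top of the list, Plin4, Fitm2 and Plin2 rose from means of at least 21.0 FPKM, and Plin3 and Plin5 were called in no comparison. A call required a log2 fold change beyond 0.5 in either direction and an adjusted p below 0.05 in edgeR's quasi-likelihood test (Benjamini-Hochberg, over all genes tested), and all 10 members passed the filter on low counts in every comparison. In siCtrl cells 8 members were called higher at day 3 than at day 1, as were 22.7% of the 13829 genes tested, and 0 lower, against 20.4% of genes (Plin3 was lower at an unadjusted p under 0.05, and DESeq2 called 0 lower). In siPRMT1 cells 6 were called higher, where 19.0% of 14224 genes were, and 0 lower, where 17.4% were (0 at an unadjusted p under 0.05 and 0 by DESeq2). The median log2 fold change of the members was 1.89 in siCtrl and 1.89 in siPRMT1 cells, beside -0.0042 and 0.0022 over all genes tested. In these bulk samples, fewer cells of a type and less RNA per cell cannot be told apart.

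**Figure D1:**
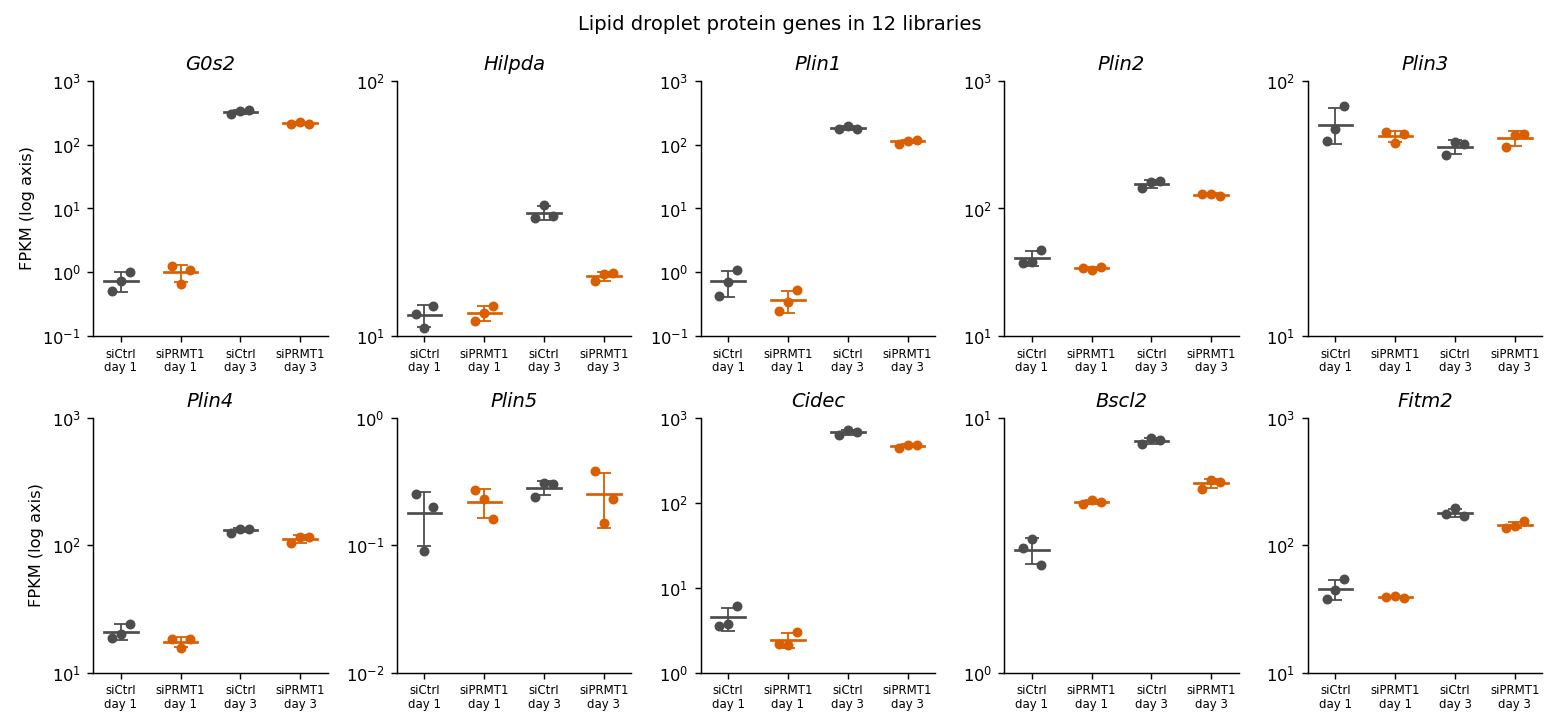
FPKM of each of the 10 genes in the 12 libraries, on a log axis whose range differs between panels. Points are libraries, horizontal lines the mean and bars the SD of the 3 libraries of a condition, grey for siCtrl and orange for siPRMT1. G0s2, Plin1 and Cidec span more than 2 powers of 10 between the days, and Plin3 and Plin5 stay in 1 range in all 4 conditions.

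The order of the genes by FPKM, which is per length and so can be compared between genes, changed between the days. At day 1 in siCtrl cells, Plin3 led with a mean of 67.5 FPKM, followed by Fitm2 at 45.3 and Plin2 at 40.9, whose libraries overlapped, then Plin4 at 21.0, Hilpda at 12.02, Cidec at 4.45, Bscl2 at 3.02, G0s2 at 0.74 and Plin1 at 0.73, which overlapped, and Plin5 at 0.18. At day 3 in siCtrl cells, Cidec led with 674 FPKM, rank 39 of the 39422 genes, before G0s2 at 329, Plin1 at 183 and Fitm2 at 179, which overlapped, Plin2 at 156, Plin4 at 131, Plin3 at 55.1, Hilpda at 30.4, Bscl2 at 8.12 and Plin5 at 0.28. With PRMT1 knockdown, Bscl2 stood above Cidec at day 1, with no overlap between their libraries, and Plin1 and Plin5 overlapped. At day 3 Plin1, at 113 FPKM, stood below Fitm2 and Plin2 and overlapped with Plin4 at 112, whereas in siCtrl cells it had stood above Plin2 and Plin4 in every library. Cidec still led at 467 FPKM, rank 79.

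Plin1, the adipocyte perilipin that shields the droplet from lipases until it is phosphorylated, lies at chr7:79721164-79732903 on the minus strand of GRCm38. At day 1 the siCtrl libraries (replicates 1 to 3, here and below) held 0.43, 0.70 and 1.07 FPKM and the siPRMT1 libraries 0.25, 0.34 and 0.52, from 12 to 47 counts each. By day 3 the siCtrl libraries had reached 175, 196 and 179 FPKM, and those of siPRMT1 104, 115 and 119. The groups overlapped at day 1 and lay apart at day 3, with every siPRMT1 library below every siCtrl library. From day 1 to day 3 the log2 fold change was 7.99 in siCtrl (standard error 0.230, edgeR adjusted p = 5.2e-09) and 8.22 in siPRMT1 cells (standard error 0.130, edgeR adjusted p = 1.7e-14). The day 3 level was lower in siPRMT1 cells by a log2 fold change of -0.71 (standard error 0.0753, edgeR adjusted p = 1.8e-05), from a mean of 183 ± 11.0 to 113 ± 7.96 FPKM (SD, n = 3). At day 1 the log2 fold change was -0.96 with a 95% interval of -1.86 to -0.070 and was not called (edgeR adjusted p = 0.172), and without siCtrl replicate 3 it was -0.59.

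Plin2, the perilipin found on droplets of most cells, lies at chr4:86626910-86670059 on the minus strand. At day 1 it was at 37.6, 37.7 and 47.4 FPKM in siCtrl and 34.1, 32.8 and 34.8 in siPRMT1, and at day 3 at 144, 161 and 163 and at 129, 131 and 126. All siPRMT1 libraries were below all siCtrl libraries of their day. The rise over time had a log2 fold change of 1.86 in siCtrl (edgeR adjusted p = 5.1e-07) and 1.91 in siPRMT1 cells (edgeR adjusted p = 4.4e-12). The knockdown difference was -0.29 at day 3 (95% interval -0.44 to -0.13, edgeR adjusted p = 0.0129), under the fold threshold, and -0.32 at day 1 (interval -0.54 to -0.10, edgeR adjusted p = 0.0815). Without siCtrl replicate 3 it was -0.21 at day 1 (edgeR adjusted p = 0.0129).

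Plin3, a cytosolic protein that moves onto nascent droplets, Plin4, which coats small droplets of adipocytes, and Plin5 lie on the minus strand of chromosome 17, at 56278962-56290511, 56100587-56109953 and 56111597-56117606. Plin3 was at 58.0, 64.7 and 79.7 FPKM in siCtrl and 63.0, 57.2 and 62.1 in siPRMT1 at day 1, and at 51.1, 57.8 and 56.5 and 55.2, 61.4 and 62.2 at day 3. Its groups overlapped at both days. The knockdown log2 fold change was 0.11 at day 3 (interval -0.056 to 0.27, edgeR adjusted p = 0.366) and -0.20 at day 1 (interval -0.45 to 0.053, edgeR adjusted p = 0.310), which was -0.069 without siCtrl replicate 3. Over time it was -0.36 in siCtrl cells (edgeR adjusted p = 0.0273), the 1 member with an adjusted p under 0.05 in the lower direction at any fold, where 28.7% of genes were, and -0.040 in siPRMT1 cells (edgeR adjusted p = 0.599). The change in siCtrl cells was -0.23 without siCtrl replicate 3 at day 1 (edgeR adjusted p = 0.0197). Plin4 was at 18.55, 20.1 and 24.2 FPKM in siCtrl and 18.3, 15.6 and 18.2 in siPRMT1 at day 1, and at 126, 134 and 133 and 103, 117 and 116 at day 3. It rose over time by 2.57 in siCtrl (edgeR adjusted p = 4.8e-08) and 2.68 in siPRMT1 cells (edgeR adjusted p = 2.4e-12). Every siPRMT1 library of Plin4 was below every siCtrl library of its day, with a log2 fold change of -0.23 at day 3 (interval -0.38 to -0.078, edgeR adjusted p = 0.0376), under the fold threshold, and -0.32 at day 1 (interval -0.56 to -0.076, edgeR adjusted p = 0.110). Without siCtrl replicate 3 the day 1 difference of Plin4 was -0.21 (edgeR adjusted p = 0.0399), also under the fold threshold. Of the exonic bases of Plin4, 19 are shared with Hdgfrp2 on the other strand. Plin5 stayed between 0.09 and 0.38 FPKM in all 12 libraries, from 4 to 22 counts, with groups that overlapped and knockdown intervals as wide as -0.79 to 1.04 at day 1 and -0.998 to 0.58 at day 3, so a difference of the size seen in Plin1 at day 3 was not detectable at this depth. Its log2 fold change at day 1 was 0.13 with and without siCtrl replicate 3.

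The mixture of perilipins shifted from Plin3 to Plin1 between the days. Of the summed FPKM of Plin1 to Plin5, which was 130 ± 19.8 in siCtrl at day 1 and 525 ± 26.6 at day 3 (SD, n = 3), Plin3 made up 51.7% ± 1.07 at day 1 and 10.5% ± 0.178 at day 3, and Plin1 0.548% ± 0.164 and 34.9% ± 1.13. The share of Plin2 was 31.5% ± 1.14 and 29.7% ± 0.894, with overlapping libraries, and that of Plin4 16.1% ± 0.225 and 24.9% ± 0.494. In siPRMT1 cells at day 3 the sum was 413 ± 19.0 FPKM, with 27.3% ± 0.792 of Plin1, 31.1% ± 1.65 of Plin2, 14.4% ± 0.294 of Plin3 and 27.1% ± 0.650 of Plin4. The libraries of the groups lay apart at day 3 for Plin1, which was 33.6% to 35.7% in siCtrl and 26.5% to 28.1% in siPRMT1, for Plin3, which was 10.3% to 10.6% and 14.1% to 14.7%, and for Plin4, which was 24.4% to 25.3% and 26.4% to 27.5%. Those of Plin2 overlapped. At day 1 in siPRMT1 cells the shares of Plin1 to Plin4 were 0.328%, 30.1%, 54.0% and 15.4% of 113 ± 5.59 FPKM, and those of Plin3 and Plin4 lay apart from the siCtrl libraries. Plin5 was at most 0.233% in any library. These shares are a description and were not tested, and a share moves when any of the others does.

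**Figure D2:**
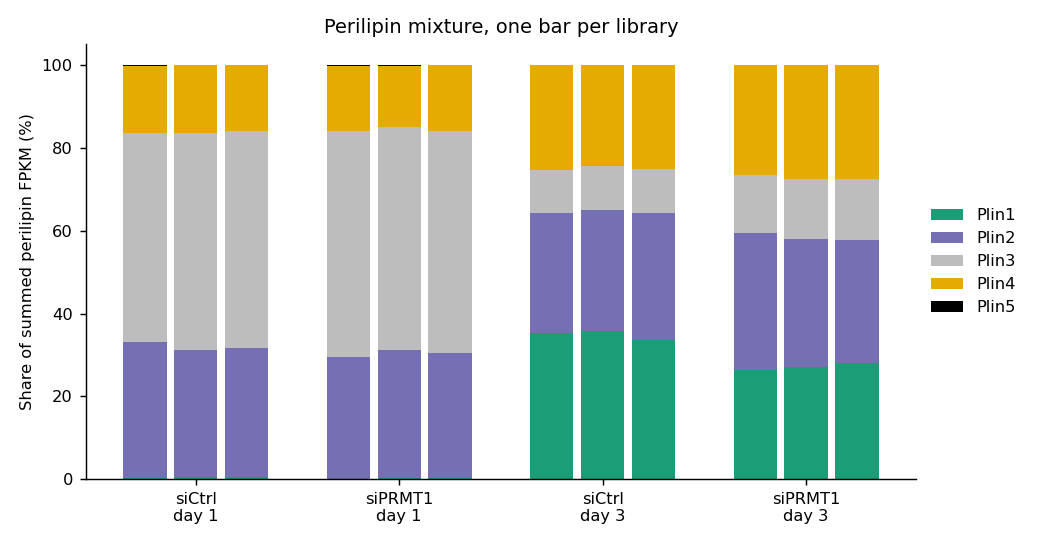
Share of Plin1 to Plin5 in their summed FPKM, in percent, with 1 stacked bar for each of the 12 libraries. Plin3 is the largest part at day 1 in both groups, Plin1 is barely visible there, and at day 3 the Plin1 part is smaller in every siPRMT1 bar (26.5% to 28.1%) than in every siCtrl bar (33.6% to 35.7%).

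Cidec, which drives the fusion of droplets in white fat, lies at chr6:113424634-113435760 on the minus strand. It was at 3.55, 3.78 and 6.03 FPKM in siCtrl and 2.18, 2.14 and 3.01 in siPRMT1 at day 1, and at 627, 726 and 671 and 445, 479 and 476 at day 3. All siPRMT1 libraries were below all siCtrl libraries at both days. The rise over time had a log2 fold change of 7.19 in siCtrl (standard error 0.204, edgeR adjusted p = 4.8e-09) and 7.57 in siPRMT1 cells (standard error 0.103, edgeR adjusted p = 7.7e-15). At day 3 Cidec was lower in siPRMT1 cells by a log2 fold change of -0.54 (standard error 0.0742, edgeR adjusted p = 1.7e-04), which is 467 ± 19.1 against 674 ± 49.5 FPKM (SD, n = 3). Without siCtrl replicate 2 at day 3 the difference was -0.47 and no longer called. At day 1 it was -0.90 (standard error 0.227, edgeR adjusted p = 0.0489), and -0.64 without siCtrl replicate 3 (edgeR adjusted p = 0.0072). That call was lost without siCtrl replicate 2 (-0.997, edgeR adjusted p = 0.0958) and without siPRMT1 replicate 1 (-0.86, 0.159), 2 (-0.84, 0.148) or 3 (-1.08, 0.101), and with scaling by library totals (-0.85, 0.0633).

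G0s2 and Hilpda, the inhibitors of adipose triglyceride lipase, lie at chr1:193272160-193273188 on the minus and chr6:29272488-29275449 on the plus strand. G0s2 was at 0.50, 0.72 and 1.0 FPKM in siCtrl and 1.27, 0.66 and 1.08 in siPRMT1 at day 1, from 13 to 25 counts per library, and the groups overlapped. At day 3 it was at 303, 337 and 346 FPKM in siCtrl and 215, 227 and 208 in siPRMT1. Every siPRMT1 library was then below every siCtrl library. Its rise over time was the largest of the 10 genes in siCtrl cells, with a log2 fold change of 8.81 (standard error 0.181, edgeR adjusted p = 8.8e-10), and was 7.75 in siPRMT1 cells (standard error 0.121, edgeR adjusted p = 1.7e-14). The knockdown difference was -0.61 at day 3 (standard error 0.0739, edgeR adjusted p = 5.2e-05) and 0.45 at day 1 (interval -0.35 to 1.25, edgeR adjusted p = 0.483), or 0.70 without siCtrl replicate 3.

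Hilpda, a target of hypoxia-inducible factors, was at 12.2, 10.8 and 13.1 FPKM in siCtrl and 11.5, 12.3 and 13.1 in siPRMT1 at day 1, with overlapping groups. At day 3 it was at 29.0, 32.6 and 29.6 in siCtrl and 16.4, 17.4 and 17.7 in siPRMT1, which did not overlap. It showed the largest knockdown difference of the members at day 3, -0.83 (standard error 0.0873, edgeR adjusted p = 1.7e-05), a mean of 17.2 against 30.4 FPKM. At day 1 the log2 fold change was -0.021 (interval -0.26 to 0.22, edgeR adjusted p = 0.927), and 0.030 without siCtrl replicate 3. Over time it rose by 1.27 in siCtrl (standard error 0.115, edgeR adjusted p = 8.8e-06), and the change in siPRMT1 cells was 0.47 (standard error 0.0827, edgeR adjusted p = 2.0e-04), under the fold threshold. Without siPRMT1 replicate 3 at day 1 the latter was 0.51 and was called.

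Bscl2 and Fitm2, the proteins of the endoplasmic reticulum, lie at chr19:8837467-8848683 on the plus and chr2:163468703-163472629 on the minus strand. Bscl2 was at 3.08, 3.33 and 2.65 FPKM in siCtrl and 4.57, 4.74 and 4.67 in siPRMT1 at day 1, and at 7.87, 8.32 and 8.16 and 5.27, 5.71 and 5.62 at day 3. The siPRMT1 libraries thus lay above the siCtrl libraries at day 1 and below them at day 3. The log2 fold change of the knockdown was 0.57 at day 1 (standard error 0.113, edgeR adjusted p = 0.0229) and -0.56 at day 3 (standard error 0.0890, edgeR adjusted p = 5.5e-04). Over time Bscl2 rose by 1.35 in siCtrl (edgeR adjusted p = 6.8e-06), while the change in siPRMT1 cells was 0.24 (edgeR adjusted p = 0.0241), under the fold threshold. Hilpda and Bscl2 bring the members with an adjusted p under 0.05 and a positive change in siPRMT1 cells to 8 at any fold, where 32.2% of genes had one. The call at day 1 was lost with any 1 library left out, at 0.59 (edgeR adjusted p = 0.0552), 0.64 (0.0611) and 0.49 (0.0028, under the fold threshold) without siCtrl replicates 1, 2 and 3, and at 0.56 (0.108), 0.54 (0.104) and 0.57 (0.112) without siPRMT1 replicates 1, 2 and 3.

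Of the exonic bases of Bscl2, 398 are shared with Gng3 on the other strand, a G protein subunit gene that held 689 counts over the 12 libraries beside 3816 of Bscl2. The strand setting of the counting is not given in the sources used here, so reads of the shared bases cannot be told apart. Gng3 was between 0.72 and 1.18 FPKM in siCtrl and between 1.70 and 1.97 in siPRMT1 at day 1, and between 1.21 and 1.55 and between 1.29 and 1.65 at day 3. Its log2 fold change was 0.79 at day 1 (edgeR adjusted p = 0.0517), or 0.62 and called without siCtrl replicate 3 (edgeR adjusted p = 0.0178), and 0.096 at day 3 (edgeR adjusted p = 0.751).

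Fitm2 was at 37.5, 44.5 and 53.95 FPKM in siCtrl and 39.1, 39.7 and 38.7 in siPRMT1 at day 1, where the groups overlapped. At day 3 it was at 176, 194 and 168 in siCtrl and 137, 141 and 154 in siPRMT1, every siPRMT1 library being the lower. It rose by 1.92 in siCtrl (edgeR adjusted p = 1.4e-06) and 1.86 in siPRMT1 cells (edgeR adjusted p = 1.6e-11). The knockdown difference was -0.32 at day 3 (interval -0.49 to -0.16, edgeR adjusted p = 0.00915), under the fold threshold, and -0.26 at day 1 (interval -0.53 to 0.015, edgeR adjusted p = 0.228), which was -0.12 without siCtrl replicate 3. The 85 exonic bases that Fitm2 shares with 2310001K24Rik on the other strand concern a gene with 37 counts in all libraries.

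**Figure D3:**
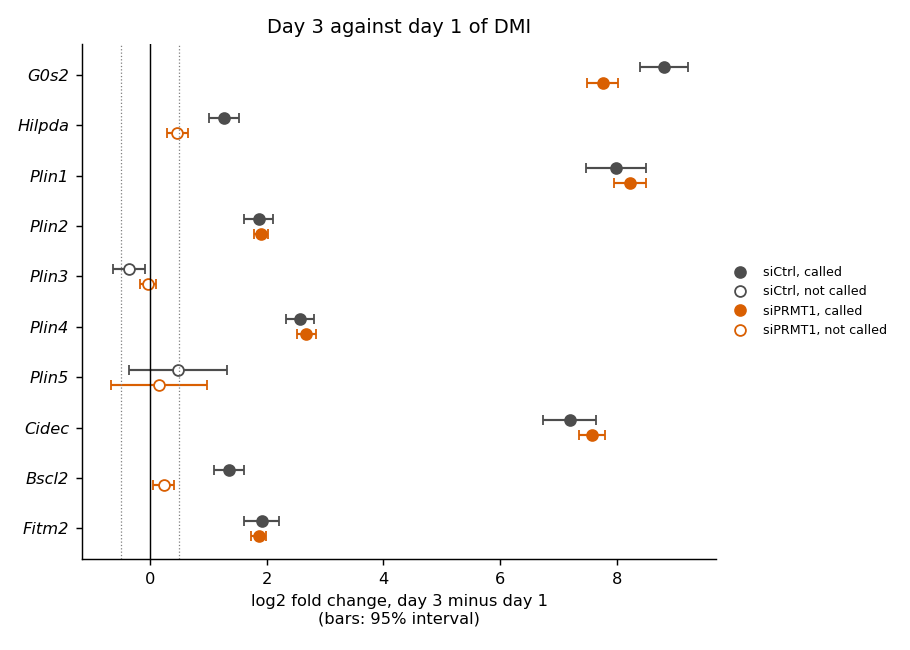
log2 fold change of each gene from day 1 to day 3 of DMI, in siCtrl (grey) and siPRMT1 cells (orange), with 95% intervals from edgeR and dotted lines at the fold threshold of 0.5 in either direction. Filled points were called. G0s2, Plin1 and Cidec lie beyond 7, and Hilpda and Bscl2 are the genes called in siCtrl cells and not in siPRMT1 cells.

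At day 3 the knockdown comparison called G0s2, Hilpda, Plin1, Cidec and Bscl2 lower, which are both lipase inhibitors, the fusion factor, 1 of the 5 perilipins and 1 of the proteins of the endoplasmic reticulum. That is 5 of 10 members, where 3.80% of the 14039 genes tested were called lower, and edgeR called 0 higher, where 2.84% of genes were, with 0 at an unadjusted p under 0.05 and 0 by DESeq2. The members were chosen with earlier results of these data known, so these shares are a description and not a test. With an adjusted p under 0.05 at any fold, the members called lower were 8, where 8.94% of genes were, Plin2, Plin4 and Fitm2 being those under the fold threshold. The log2 fold changes of the 10 genes ran from -0.83 to 0.11 with a median of -0.43, beside 0.0073 over all genes tested, and 9 were negative. The levels of the called genes in siCtrl cells ran from Bscl2 at 8.12 to Cidec at 674 FPKM. In the same libraries, 3 of the 9 tested adipocyte markers (Cfd, Adipoq and Acsl1) were called lower and 2 of 9 preadipocyte and fibroblast markers (Pdgfra and Ly6a) higher, and the part of these differences in the result was not tested. Nor was that of Krt8, Krt18, Des and the endothelial Cdh5, which were called lower. Acta2, the other muscle marker tested, had a positive change and was not called, at 97.1 to 117 FPKM in siCtrl and 142 to 154 in siPRMT1. Cdh5 was near 0, at 0.21 to 0.30 against 0.06 to 0.19 FPKM.

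At day 1 Bscl2 was called higher and Cidec lower in siPRMT1 than in siCtrl cells. That is 1 of 10 members in each direction, where 1.95% and 1.61% of the 13689 genes tested were called higher and lower. The median log2 fold change of the 10 genes was -0.23, beside 0.0096 over all genes tested, and 7 were negative. Without siCtrl replicate 3 the median was -0.093, beside 0.0011, and 6 were negative. Without siCtrl replicate 3, Cidec was the 1 member called, where 3.61% of 13949 genes were called higher and 2.65% lower. Bscl2 lay just under the fold threshold at 0.49 in that fit. Of 7 tested adipocyte markers 1, Cd36, was called lower at day 1, as was 1 of 3 macrophage markers, Lyz2 (-1.52, edgeR adjusted p = 0.0486). Lyz2 was at a low level, 0.66 to 1.07 FPKM in siCtrl and 0.16 to 0.49 in siPRMT1. The other 2 macrophage markers tested had positive changes, and the median of the 3 was 0.20. The 9 preadipocyte and fibroblast markers had a median log2 fold change of -0.11. Cd36 and Lyz2 were also called without siCtrl replicate 3, and their part in the result was not tested.

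**Figure D4:**
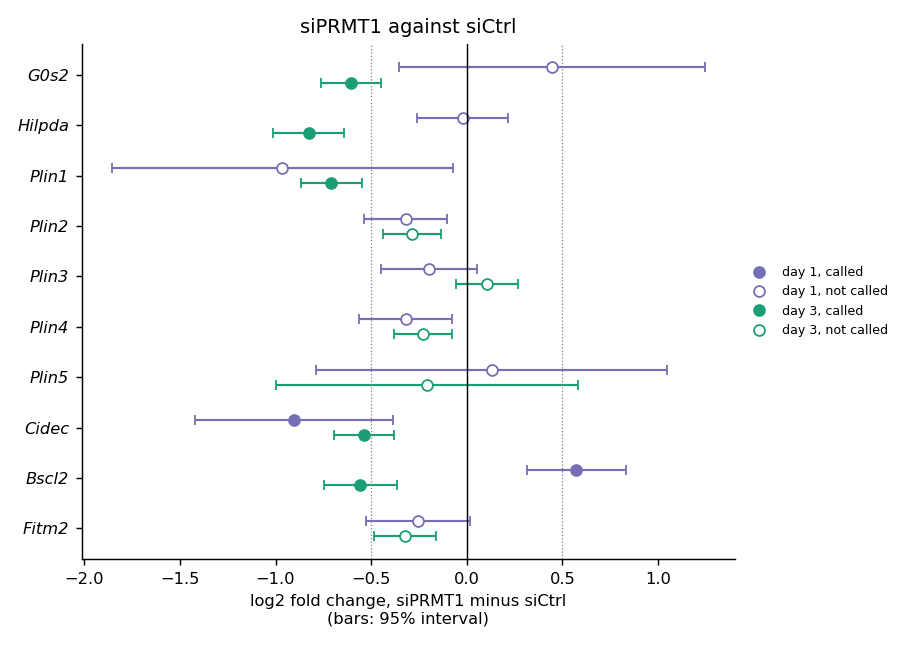
log2 fold change of siPRMT1 against siCtrl for each gene at day 1 (purple) and day 3 (green), with 95% intervals from edgeR and dotted lines at the fold threshold of 0.5 in either direction. Filled points were called. At day 3 all points except Plin3 lie below 0, and Bscl2 has a called point on each side of 0.

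Whether the knockdown difference changed between the days was tested as an interaction over all 12 libraries, which shares every library with the comparisons above. G0s2, Hilpda and Bscl2 differed, each toward lower values at day 3, which is 3 of 10 members, where 3.47% of the 14612 genes tested were called in that direction. In the other direction edgeR called 0, where it called 4.77% of genes, with 1 member, Plin3, at an unadjusted p under 0.05 and 0 called by DESeq2. The difference of the log2 fold changes, day 3 minus day 1, was -1.11 in Bscl2 (standard error 0.131, edgeR adjusted p = 9.3e-05), -0.79 in Hilpda (standard error 0.135, edgeR adjusted p = 0.0021) and -1.05 in G0s2 (standard error 0.303, edgeR adjusted p = 0.0347). Of G0s2 this call rested on 13 to 25 counts in each day 1 library and was lost without siCtrl replicate 1 (-0.73) or 2 (-1.11) or siPRMT1 replicate 1 (-0.85) or 3 (-0.996) at day 1, and without siCtrl replicate 2 (-1.03) or 3 (-1.01) or siPRMT1 replicate 1 (-1.05), 2 (-1.09) or 3 (-1.02) at day 3. Bscl2 and Hilpda were called with each of the 12 libraries left out. For Plin1 the difference was 0.23 (interval -0.51 to 0.96, edgeR adjusted p = 0.719) and for Cidec 0.37 (interval -0.11 to 0.86, edgeR adjusted p = 0.312). Without siCtrl replicate 3 at day 1 these were -0.16 and 0.080, and Plin3 was at 0.16. The intervals of Plin2, Plin4 and Fitm2 were -0.21 to 0.32, -0.17 to 0.40 and -0.37 to 0.28. With all libraries Plin3 was at 0.33 (interval 0.015 to 0.64, edgeR adjusted p = 0.162) and Plin5 at -0.31 (interval -1.52 to 0.89). The median over the members was 0.0050, beside 0.018 over all genes tested, and -0.19 beside -0.012 without siCtrl replicate 3 at day 1. Of the cell type markers, Pdgfra (0.86), Ly6a (1.2) and Col3a1 (0.56) of preadipocytes and fibroblasts, Car3 (1.12) of adipocytes and Acta2 (0.73) of muscle were called in the same test toward higher values at day 3, and Cd68 (-0.67) of macrophages toward lower ones. Of the 4 macrophage markers tested, 2 had positive changes, and the median of the 4 was 0.16. Of the 2 muscle markers tested, 1 had a positive change. The part of these markers in the result was not tested.

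Around the 10 genes, enzymes that make and break triglyceride were among those called lower at day 3, where 3.80% of all genes tested were called lower and 2.84% higher. Of 13 tested genes of triglyceride synthesis 4 were called lower in siPRMT1 cells at day 3 and none higher, with a median log2 fold change of -0.44: Gpd1, which supplies glycerol phosphate (-1.08), Dgat2, which makes triglyceride from diglyceride (-0.82), Agpat9, an acyltransferase that starts glycerolipid synthesis (-0.70), and Lpin1, a phosphatidate phosphatase (-0.63). Of 14 genes of lipolysis 4 were lower, with a median of -0.037: the monoglyceride lipase Mgll (-0.85), the hormone-sensitive lipase Lipe (-0.61), Pnpla2 itself (-0.55) and Pnpla3 (-0.74). Of 18 genes of droplet assembly and contact with the endoplasmic reticulum edgeR called 0, with a median of 0.056, and DESeq2 called 0, while 2 were higher and 4 lower at an unadjusted p under 0.05. Of 4 genes of droplet fusion and growth, 1 was called, Clstn3 (-1.10), and of 17 other droplet proteins 2, the retinal reductase Dhrs3 (-0.90) and the carboxylesterase Ces1d (-0.61), with medians of -0.20 and -0.16. Among 12 regulators of droplet genes, the coactivator Ppargc1a was higher (0.55) and the liver X receptor Nr1h3 lower (-0.64), with a median of -0.29. Lpin1 and Pnpla3, and Nr1h3 at day 1, are named in addition to the stated rule, after their values had been seen. No difference between lists was tested.

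At day 1, where 1.61% of all genes tested were called lower, 4 of the 12 regulators were, the adipogenic factors Pparg (-0.52, edgeR adjusted p = 0.0066) and Cebpa (-0.88, edgeR adjusted p = 0.0156), the hypoxia-inducible factor Epas1 (-0.52, edgeR adjusted p = 0.0054) and Nr1h3 (-0.64, edgeR adjusted p = 0.0305), with a median of -0.21 over the list. Without siCtrl replicate 3, Pparg was at -0.48 and no longer called, and Cebpa at -0.68, Epas1 at -0.52 and Nr1h3 at -0.57 were called. Pnpla2 was lower by -0.85 (edgeR adjusted p = 0.0115) and Agpat9 by -0.71 (edgeR adjusted p = 0.0081), the 1 called gene each of 13 genes of lipolysis and 12 of triglyceride synthesis, and without siCtrl replicate 3 they were called at -0.69 and -0.66. Of 18 genes of assembly, 3 of fusion and 15 other droplet proteins edgeR and DESeq2 called 0, and 4, 1 and 6 had an unadjusted p under 0.05. In the interaction, which called 3.47% of all genes toward lower and 4.77% toward higher values at day 3, Gpd1 (-1.40) and Agpat1_1 (-0.76) of triglyceride synthesis, Mgll (-1.22) of lipolysis and Dhrs3 (-0.95) differed toward lower values at day 3, and Lamp2 (0.54), Vim (0.65) and Hsd17b11 (0.65) toward higher ones, while edgeR and DESeq2 called 0 genes of assembly, fusion or regulation, of which 4, 1 and 4 had an unadjusted p under 0.05.

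Over time in siCtrl cells, where 22.7% of all genes tested were called higher and 20.4% lower, 10 of 13 genes of triglyceride synthesis rose and 0 fell. Those with the smallest p were Gpd1 (7.96), Agpat9 (3.88) and Dgat2 (4.93). Of 14 genes of lipolysis 5 rose, among them Mgll (4.96), Lipe (3.50) and Pnpla3 (8.21), and 1 fell, Lamp2 (-0.83). Of the regulators 6 of 12 rose, with Nr1h3 (3.93), Pparg (2.01) and Tfeb (2.38), and 2 fell, Hif1a (-1.09) and Cebpb (-0.95). Of the assembly list 4 of 18 were called, Pex19 (1.04), Mfn2_1 (1.14) and Pex3 (0.71) higher and Rab18 (-0.60) lower, with Clstn3 (6.57) and Tbc1d4 (0.96) of the 4 fusion genes higher and 6 of 17 other droplet proteins higher and 2 lower. In siPRMT1 cells, where 19.0% of all genes were called higher and 17.4% lower, the counts of higher and lower genes were 9 and 0 for synthesis, 6 and 0 for lipolysis, 7 and 2 for regulators, 4 and 0 for assembly, 2 and 0 for fusion and 7 and 1 for other droplet proteins. By Pearson's r of log2 CPM over the 12 libraries, the genes most like Plin1 were Rgcc, Bckdhb and Cfd (r = 0.998 each), those most like Plin2 were Qdpr, Aco1 and Hadh (r = 0.999 each), and those most like Cidec were Pex11a, Syn2 and Cfd (r = 0.999 each), among 10280 genes. These r are over both days together, and none was computed within a day.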

How the data were processed

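Total RNA of 12 samples of 3T3-L1 cells was turned into mRNA libraries (MGIEasy kit). Reads were trimmed by the authors with cutadapt 1.11, then aligned to mouse reference transcripts using Hisat2 2.1.0. RSEM 1.2.6 stands in the submitters' processing notes with no role, and the counting tool and strand setting are not given in the sources used here. The deposited counts are whole reads per gene without normalization, on GRCm38 positions with a gene length in bases. The authors scaled the counts by length and library total to give the deposited FPKM, and recomputed values differed by no more than 0.005. No column was left out.

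The members and lists were chosen with earlier results of these data known. Counts were compared with edgeR 4.0.16 in R 4.3.3 (quasi-likelihood test, TMM normalization, filterByExpr, Benjamini-Hochberg adjustment over all genes tested), 3 against 3 libraries at each day and within each siRNA, and over all 12 libraries for the interaction. Standard errors come from the ratio of the log2 fold change's size to the root of the F statistic. FPKM, a level per length scaled by the library total alone, describes levels and shares. Named are all members, Prmt1, up to 3 called genes of smallest p per list and direction, and the 3 genes most like Plin1, Plin2 and Cidec among genes averaging 5 CPM or more (prior count 2). Where a listed gene had further rows under a numbered name, as for Agpat1_1 and Mfn2_1, only the row with the most counts was used. Such rows were not summed, unlike those of Plin2. Alternatives were DESeq2 1.42.0, RLE normalization, no filter, the replicate number as a block, any fold change, the Plin2 rows apart, all libraries in 1 model and each library left out. Scaling by library totals alone, and leaving libraries out of the perilipin shares, were added after seeing the data. The fits were tested on simulated data, in which the changes were larger than the fold threshold and genes of low counts were left unchanged. That test does not cover calls near the threshold or genes of low counts.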

Additional observations from a re-analysis of the deposited data

Results flagged for a closer look

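In 3 of the 10 genes the difference between siPRMT1 and siCtrl cells was called as differing between the 2 days by the test of the interaction over all 12 libraries. All 3 differed toward lower values at day 3, where 3.47% of the 14612 genes tested were called in that direction and 4.77% in the other. Bscl2 stood out by direction: its knockdown difference at day 3 minus that at day 1 was -1.11 on the log2 scale (95% interval -1.39 to -0.83), with siPRMT1 above siCtrl in all libraries at day 1 and below in all at day 3. Gng3, which shares exonic bases with Bscl2 on the other strand, had an interaction of -0.67 (edgeR adjusted p = 0.110), and its part in the result was not tested. The interaction was -0.79 in Hilpda (interval -1.07 to -0.50), whose groups overlapped at day 1, and -1.05 in G0s2 (interval -1.70 to -0.41), whose day 1 libraries held at most 25 counts. The call of G0s2 held in only 3 of the 12 fits with 1 library left out.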

How the results depend on the processing

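Keeping the Plin2 rows apart could change nothing, as the row Plin2 was empty. No change of tool, normalization or filter moved a count of members called by over 1.5 times. The exceptions were the scaling by library totals and the fold threshold. With library totals 0 members were called lower at day 1 (Cidec lost its call), where 148 genes were. At any fold, 8 members were lower at day 3, where 8.94% of genes were. Over time in siCtrl cells 1 member was lower at any fold, where 28.7% of genes were. At any fold the genes called were 441 higher and 599 lower at day 1, 1058 and 1255 at day 3, 1123 higher in the interaction, and 4583 and 4431 over time in siPRMT1 cells. With 1 library left out, 61 to 504 genes were higher and 62 to 369 lower at day 1, lowest without siPRMT1 replicate 3 and highest without siCtrl replicate 3, and 305 to 1005 were lower in the interaction; 0 members were higher and 0 to 1 lower at day 1. The cause was not tested.

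Same-numbered libraries did not all deviate together: their deviations from the group means correlated at -0.184, 0.398 and 0.452 between siRNAs at day 1 and at 0.467, 0.298 and -0.129 at day 3, and not every library matched its own number best, so the numbers were not taken as pairs. With the replicate block, 2 members were called lower at day 1, Plin1 (-1.02, edgeR adjusted p = 0.0341) beside Cidec, and no other member's call changed.

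Of 680 fits of a member's log2 fold change, 642 kept both the sign and the call. These include the fits with the Plin2 rows apart, which could not differ. In 21 a call was lost, in 2 a call was gained, and 15 changed sign, none in a called value. Hilpda at day 1 was 0.029 with library totals and -0.090 to 0.030 with 1 library left out, and Plin2 in the interaction -0.0095 and -0.094 to 0.12. With 1 library left out, Plin5 ran from -0.13 to 0.53 at day 1, -0.59 to 0.087 at day 3 and -0.23 to 0.45 over time in siPRMT1 cells, Plin3 from -0.083 to 0.0054 there, and in the interaction Plin1 from -0.16 to 0.62, Plin4 from -0.035 to 0.20 and Fitm2 from -0.22 to 0.081. G0s2, Hilpda, Plin1 and Bscl2 at day 3 were called in all 6 such fits and under all 7 other alternatives. Depth limits Plin5 in every condition and Plin1 and G0s2 at day 1.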
